A study of Rattus norvegicus with 15 samples.

Results

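The microRNAs (miRNAs) rno-miR-15b, rno-miR-16, rno-miR-195 and rno-miR-497 are the autosomal members of the rat miR-15/16 seed family, and they come from 2 gene clusters. They were taken by name from 15 arrays that read 350 rat miRNAs, so 4 of 350 measured miRNAs are described here, and all 4 were found. Names are those printed on the array, written below without the rat prefix. The RNA came from the sciatic nerves of adult male animals, in 5 groups of 3 arrays: uninjured nerve (day 0, labelled 0h) and nerve 1, 4, 7 and 14 days after injury. The labels name no strain, genotype or drug. The injury is given as a resection with proximal tissue of 0.5 cm in the series text, and as a crush with damaged sections of about 0.5 mm in the treatment protocol. The samples are named both as proximal stumps and as the injury site, and injury here stands for either procedure. No label states whether the 3 samples of a group came from separate animals, so the spread behind each p-value is that between samples and may be technical.

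A miRNA guides Argonaute proteins to messenger RNAs that pair with its seed, the bases near its 5′ end, and lowers their translation and stability. Members of the miR-15/16 family share a seed and therefore share many targets, among them cyclins, cyclin-dependent kinases and the anti-apoptotic gene BCL2, known mainly from human and mouse cells. They are known as brakes on the cell cycle, and the cluster of miR-195 and miR-497 is known in mouse for keeping heart muscle cells and muscle stem cells out of division. In a cut or crushed nerve, Schwann cells lose their myelin programme and divide, while macrophages and fibroblasts enter or expand. miR-16 is also widely used as a reference miRNA against which others are normalised.

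The mature sequences are shown because the family is defined by them. They are RefSeq's for the GRCr8 assembly, printed 5′ to 3′, with the seed (bases 2 to 8) in capitals.
miR-15b: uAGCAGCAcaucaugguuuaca
miR-16: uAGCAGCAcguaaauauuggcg
miR-195: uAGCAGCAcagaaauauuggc
miR-497: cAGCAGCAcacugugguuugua
miR-322: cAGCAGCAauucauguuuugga
miR-503: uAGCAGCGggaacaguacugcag
miR-103: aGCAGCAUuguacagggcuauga
miR-107: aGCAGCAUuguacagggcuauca
The seed AGCAGCA was carried by 5 of the 693 mature names in the RefSeq table: the 4 family members and miR-322, an X-linked miRNA. miR-503, a neighbour of miR-322, ends its seed with another base (AGCAGCG), and in miR-103 and miR-107 the seed is GCAGCAU, the same motif shifted by 1 base. Outside the seed the members fall into different kinds. Counted from the 5′ end with the seed included, miR-16 and miR-195 were identical at 19 of 21 positions, while miR-15b matched miR-497 at 16 of 22 and its cluster partner miR-16 at 14 of 22. miR-195 and miR-497, which share a cluster, matched at 12 of 21. After position 8 these pairs, in the same order, matched at 11 of 13, 9 of 14, 6 of 14 and 5 of 13 positions. Because miR-16 and miR-195 differ at only 2 positions, their probes may take up some of each other's RNA, and how much was not tested.

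In GRCr8, mature miR-15b lies at chr2:155555197-155555218 and mature miR-16 at chr2:155555343-155555364, both on the plus strand. Their hairpin genes are 51 bases apart inside Smc4 (chr2:155550262-155578695, plus strand), which encodes a subunit of the condensin complexes that compact chromosomes in mitosis. Mature miR-497 lies at chr10:55450172-55450193 and mature miR-195 at chr10:55450509-55450529, plus strand, with 255 bases between the hairpins. Each member was read by 2 probes on 20 spots and was detected on 15 of 15 arrays. The 2 probes of a member followed each other over the 15 arrays, with r of 0.987 for miR-15b, 0.968 for miR-16, 0.993 for miR-195 and 0.99 for miR-497. Their changes from day 0 differed by at most 0.18 (miR-15b), 0.08 (miR-16), 0.08 (miR-195) and 0.04 (miR-497) on the log2 scale. Background-subtracted intensity, before scaling, lay between 686 and 1812 for miR-15b, 3913 and 8451 for miR-16, 633 and 1803 for miR-195 and 483 and 1329 for miR-497, and no spot was saturated. The less abundant arms of these hairpins were not analysed here.

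Levels are log2 values relative to each array's 75th percentile over the 164 miRNAs detected on all arrays, so a difference of 1 is a 2-fold difference, and a level says nothing about which of 2 miRNAs is more abundant. Each array had between 200 and 239 detected miRNAs, except day 14 replicate 3 with 172. That array also had more outlier spots (5.67%, against 2.66% to 4.17% on the others), and it lay on a slide and scan day of its own. The arrays lay on 5 slides. Day 0, day 1 and day 4 each had their own slide, and day 7 shared 1 with 2 of the day 14 arrays. An effect of the slide therefore cannot be told apart from the difference between day 0 and any injured group. The same holds for differences between injured groups. Only day 7 and those 2 day 14 arrays can be compared within a slide. The day 1 slide had a bright corner control at 86.1 to 112.5, against 868 to 2320 on the other slides. The median change of all 231 tested miRNAs from day 0 was -0.26 on day 1, -0.26 on day 4, -0.32 on day 7 and -0.37 on day 14, so each member's change is also given relative to this median.

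Under this scaling the 4 members followed 3 time courses. miR-15b was at its lowest in uninjured nerve and 1.5-fold to 1.64-fold higher from day 4. miR-195 and miR-497 were lower on days 1, 4 and 7 and had returned part or all of the way on day 14. miR-16 moved with the median miRNA on days 1, 4 and 7 and was 0.28 above it on day 14. The direction for miR-16 changed with the way of processing. For miR-195 the sizes, the day 7 call and the direction on day 14 changed with it. So did the calls for miR-497 on days 7 and 14 and for miR-15b on day 1. The return of miR-195 and miR-497 on day 14 as part or all of the way therefore holds for this scaling only. The values are given with each member. Each result was tested with limma, with Benjamini-Hochberg adjustment over the 231 miRNAs tested and a threshold of 0.05. In the F test over the 5 groups all 4 members passed, with an adjusted p of 5.77e-05 for miR-15b, 0.0488 for miR-16, 3.56e-05 for miR-195 and 7.6e-05 for miR-497, and 86.1% of all tested miRNAs passed it too. The call for miR-16 was lost in 11 of the 15 fits that leave out 1 array (adjusted p up to 0.339).

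**Figure D1:**
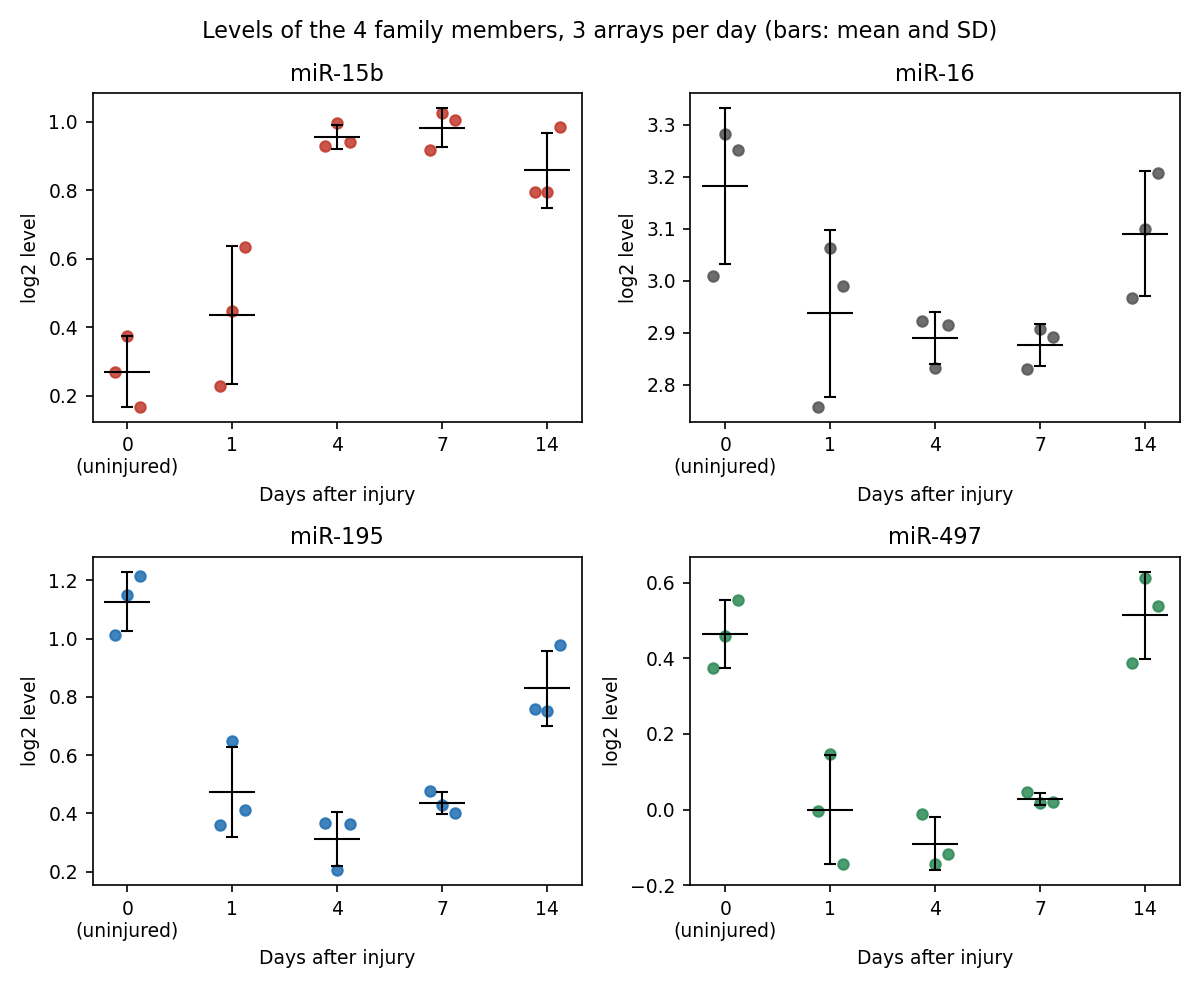
Log2 level of miR-15b, miR-16, miR-195 and miR-497 (vertical axes, each with its own range) against days after injury, with day 0 uninjured. Each point is an array and the bars are the mean and SD of 3 arrays. The 3 day 4 arrays of miR-15b (0.93 to 0.995) sit above all day 0 arrays (0.17 to 0.375), and the 3 day 4 arrays of miR-195 (0.20 to 0.37) sit below all of theirs (1.01 to 1.21).

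miR-15b is encoded with miR-16 in the Smc4 locus. In uninjured nerve its 3 arrays read 0.27, 0.375 and 0.17, and on day 1 they read 0.23, 0.45 and 0.63. On day 4 they read 0.93, 0.995 and 0.94, on day 7 0.92, 1.025 and 1.005, and on day 14 0.795, 0.79 and 0.985. The day 1 arrays overlapped those of day 0, and every array from day 4 on was above all 6 earlier ones. In bulk tissue, a change in the number of cells that make a miRNA and a change in its amount per cell cannot be told apart.

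The change of miR-15b on day 1, 0.17 ± 0.11 (SE), did not pass (adjusted p = 0.187), but the day 1 rise passed when the 75th percentile covered all miRNAs (0.34, adjusted p = 0.0104), after quantile normalisation (0.22, 0.0255) or normexp (0.19, 0.0243) and in the deposited value table (0.27, 0.0066). It rose by 0.68 ± 0.11 on day 4 (1.61-fold, adjusted p = 7.15e-05), by 0.71 ± 0.11 on day 7 (1.64-fold, adjusted p = 4.68e-05) and by 0.59 ± 0.11 on day 14 (1.5-fold, adjusted p = 0.000308), each against day 0. With the percentile over all miRNAs these rises were larger, 0.999, 1.07 and 0.95. Relative to the median miRNA these changes were 0.42 on day 1, 0.94 on day 4, 1.03 on day 7 and 0.95 on day 14. Among the 231 tested miRNAs its change ranked 57th from the highest on day 1, 28th on day 4, 27th on day 7 and 22nd on day 14. The day 4, 7 and 14 levels did not differ beyond their spread (day 7 over day 4 0.03, adjusted p = 0.901; day 14 over day 4 -0.10, adjusted p = 0.473). Between day 1 and day 4 it rose by 0.52 ± 0.11 (adjusted p = 0.0012).

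miR-16 sits beside miR-15b in the same cluster. Its arrays read 3.01, 3.28 and 3.25 on day 0, 2.76, 3.06 and 2.99 on day 1, and 2.92, 2.83 and 2.91 on day 4. On day 7 they read 2.83, 2.91 and 2.89, and on day 14 2.97, 3.099 and 3.21. The day 4 and day 7 arrays lay just under the lowest day 0 array, and those of days 1 and 14 overlapped day 0.

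Against day 0, miR-16 changed by -0.24 ± 0.10 on day 1 (adjusted p = 0.0556), -0.29 ± 0.10 on day 4 (adjusted p = 0.0239), -0.31 ± 0.10 on day 7 (adjusted p = 0.02) and -0.09 ± 0.10 on day 14 (adjusted p = 0.465). The falls on days 4 and 7 passed under this scaling, but the changes were above 0 with 4 other ways of processing (0.02 to 0.27 on day 4, 0.06 to 0.19 on day 7). On day 4 a rise passed in 3 of these 4, with an adjusted p of 0.0198 for quantile normalisation, 0.0122 for normexp and 0.0202 for the deposited table, and on day 7 it passed with normexp (adjusted p = 0.0289). The direction of the miR-16 change on these days thus depends on the processing. With day 14 replicate 3 left out and the scaling taken anew, neither passed (-0.14 on day 4, adjusted p = 0.144, and -0.14 on day 7, adjusted p = 0.146). Each call was also lost without day 0 replicate 3, and without day 4 replicate 2 or day 7 replicate 1 of its own group. Relative to the median miRNA, miR-16 changed by 0.01 on day 1, -0.03 on day 4, 0.02 on day 7 and 0.28 on day 14, and it ranked 115th, 120th, 113th and 78th from the highest of 231. On day 4 it was 0.35 above the median with quantile normalisation and 0.37 above it in the deposited table. No neighbouring pair of times in the order of its levels (day 0, 14, 1, 4, 7 from the highest) differed beyond the spread, with adjusted p between 0.218 and 0.952.

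miR-195 differs from miR-16 at 2 positions and comes from the cluster on chromosome 10. Its arrays read 1.01, 1.15 and 1.21 on day 0, 0.36, 0.65 and 0.41 on day 1, and 0.37, 0.20 and 0.36 on day 4. On day 7 they read 0.48, 0.43 and 0.40, and on day 14 0.76, 0.75 and 0.98. Every injured array was below every uninjured one, and the day 14 arrays were above all those of days 1, 4 and 7.

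It fell by 0.65 ± 0.10 on day 1 (1.57-fold lower, adjusted p = 0.000147), by 0.81 ± 0.10 on day 4 (1.76-fold lower, adjusted p = 1.2e-05) and by 0.69 ± 0.10 on day 7 (1.61-fold lower, adjusted p = 4.63e-05). The falls were less than these with quantile normalisation, normexp and the deposited table, at -0.31, -0.28 and -0.27 on day 1 and -0.36, -0.33 and -0.31 on day 4, all passing. With the percentile over all miRNAs they were -0.48, -0.50 and -0.33 on days 1, 4 and 7. On day 7 the call was lost with the first 3 of these alternatives (-0.18, adjusted p = 0.152, -0.17, adjusted p = 0.181, and -0.22, adjusted p = 0.0656). The fall on day 14, 0.30 ± 0.10 (adjusted p = 0.0182), was smaller than that of the median miRNA, and the change was above 0 with 5 other ways of processing (0.06 to 0.16). This call was lost without day 0 replicate 3 or day 14 replicates 1 or 2 (-0.25, -0.26 and -0.26). Relative to the median miRNA, miR-195 changed by -0.40 on day 1, -0.56 on day 4, -0.37 on day 7 and 0.07 on day 14. It ranked 37th, 34th and 59th from the lowest of 231 on days 1, 4 and 7. The levels of days 1, 7 and 4, in that order from the higher, did not differ beyond their spread (adjusted p = 0.76 and 0.496).

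miR-497, the partner of miR-195, took a like course. Its arrays read 0.37, 0.46 and 0.56 on day 0, -0.003, 0.15 and -0.14 on day 1, and -0.01, -0.14 and -0.12 on day 4. On day 7 they read 0.05, 0.02 and 0.02, and on day 14 0.39, 0.61 and 0.54. The arrays of days 1, 4 and 7 were all below those of day 0, and the day 14 arrays overlapped day 0.

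It fell by 0.46 ± 0.09 on day 1 (1.38-fold lower, adjusted p = 0.000921), by 0.55 ± 0.09 on day 4 (1.47-fold lower, adjusted p = 0.000176) and by 0.44 ± 0.09 on day 7 (1.35-fold lower, adjusted p = 0.00114). Its day 14 change of 0.05 ± 0.09 did not pass (adjusted p = 0.662), but a day 14 rise passed with the 75th percentile over all miRNAs (0.41, adjusted p = 0.000131), without scaling (0.43, 0.0128), with quantile normalisation (0.225, 0.00827), with normexp (0.21, 0.00243) and in the deposited table (0.23, 0.0222). Relative to the median miRNA, miR-497 changed by -0.21 on day 1, -0.30 on day 4, -0.11 on day 7 and 0.42 on day 14. The day 1 call was lost without day 14 replicate 3 (-0.25, adjusted p = 0.066), and the day 7 call was lost with the 75th percentile taken over all miRNAs (-0.07, adjusted p = 0.357), where the falls on days 1 and 4 were -0.29 and -0.24 and passed.

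On day 1, 0 members rose and 2 fell in limma (0 and 3 at an unadjusted p under 0.05), among tested miRNAs of which 16.9% rose and 43.7% fell, 60.6% in all. On day 4, 1 rose and 3 fell, against 20.3% and 45.5% of all tested miRNAs (65.8% in all). The counts on day 7 were the same, 1 and 3, against 17.3% and 45.5% (62.8% in all). On day 14, 1 rose and 1 fell, against 16.0% and 50.6% (66.7% in all). The median member changed by -0.35 on day 1, -0.42 on day 4, -0.37 on day 7 and -0.02 on day 14. Under the reported scaling, 4 of 4 members passed on days 4 and 7, a larger share than among all tested miRNAs. On days 1 and 14, with 2 of 4, the share was smaller. Both counts of 4 include miR-16, whose direction depends on the processing. On day 7 only 2 of 4 passed under the all-miRNA 75th percentile, quantile scaling or the deposited values. There 62.8%, 57.6% and 50.4% of all tested miRNAs passed, so the members' share was smaller. Over the fits that leave out 1 array, 3 to 4 members passed on each of days 4 and 7. No test of these differences was made.

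The 3 arrays of miR-15b lay above all 3 of day 0 on days 4, 7 and 14, as did those of 25.1%, 20.8% and 16.0% of tested miRNAs. On day 1, 2 members lay below all day 0 arrays (miR-195 and miR-497), as did 38.1% of tested miRNAs. On days 4 and 7 these and miR-16 did so, as did 51.9% and 54.1%, and on day 14 miR-195 alone did so among the members, as did 46.8% of tested miRNAs.

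**Figure D2:**
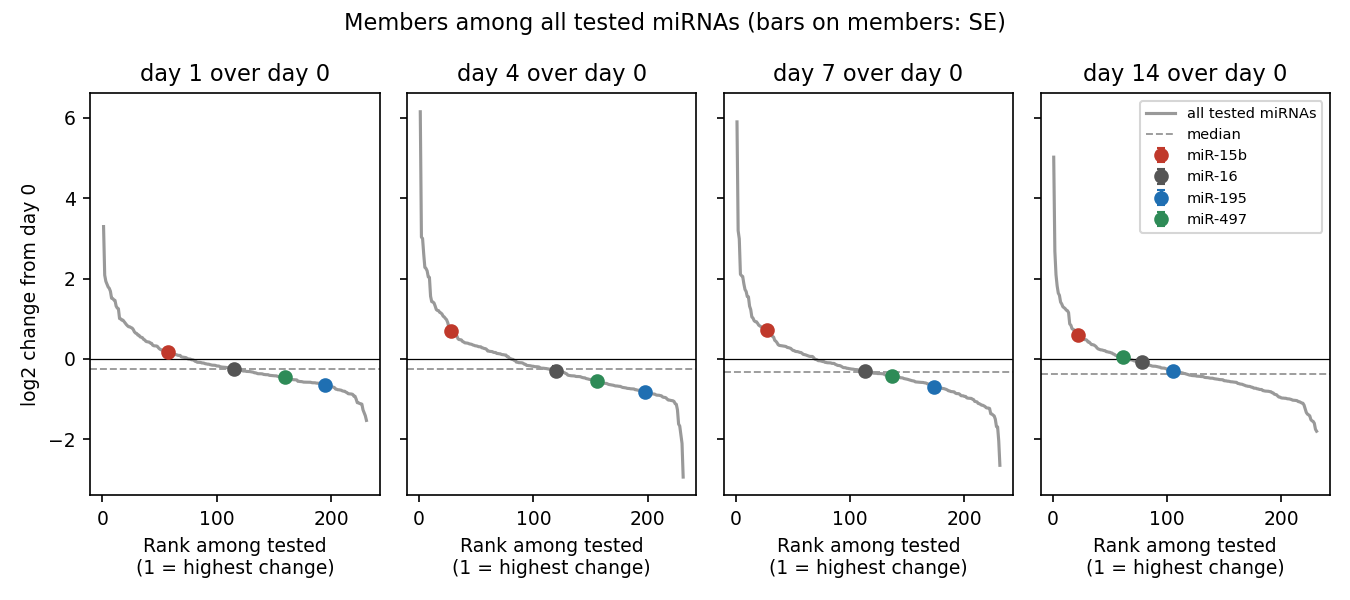
Log2 change from day 0 (vertical axis) of all 231 tested miRNAs, ranked from the highest to the lowest (horizontal axis), in 1 panel for each injured day. The grey line is all miRNAs, the dashed line their median, and the points are the 4 members with their SE. miR-15b lies in the upper part in each panel (ranks 57, 28, 27 and 22), miR-16 lies near the dashed line on days 1, 4 and 7 and above it on day 14 (ranks 115, 120, 113 and 78), and miR-195 lies lowest of the 4 under this scaling. The zero line moves against the curve with the scaling, so that miR-16 on days 4 and 7 and miR-195 on day 14 lie above 0 under other scalings.

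Between times after injury, the chromosome 10 cluster rose late. Between day 1 and day 4, 1 member rose, miR-15b, while 51.5% of tested miRNAs passed and 27.7% rose. Between day 4 and day 7, 0 members passed in limma (0 at an unadjusted p under 0.05), and few miRNAs did (6.06%). Between day 7 and day 14, 13.9% of tested miRNAs passed and 4.76% rose, and 2 of these rises were miR-497 (0.49 ± 0.09, adjusted p = 0.00569) and miR-195 (0.39 ± 0.10, adjusted p = 0.0206). They ranked 12th and 15th from the highest of 231. For each, all 3 day 14 arrays were above all 3 day 7 arrays. The share of all tested miRNAs for which this held is not given here. miR-16 changed by 0.21 ± 0.10 (adjusted p = 0.185) and miR-15b by -0.12 ± 0.11 (adjusted p = 0.447) over the same interval.

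The late rise of miR-195 depended on single arrays: it was lost without day 14 replicate 3 and without any 1 of the 3 day 7 arrays, with values of 0.25 to 0.43 over all 15 fits that leave out 1 array, and it was lost with normexp (0.295, adjusted p = 0.0641). With the 75th percentile over all miRNAs and without scaling, 3 members rose from day 7 to day 14, miR-16 among them (0.21, adjusted p = 0.0298, and 0.49, adjusted p = 0.0166). The 2 day 14 arrays that share the day 7 slide gave 0.32 for miR-195 (adjusted p = 0.0837) and 0.47 for miR-497 (adjusted p = 0.0536) over the 3 day 7 arrays of that slide. Leaving out day 14 replicate 3 with the scaling kept gave 0.32 for miR-195 (adjusted p = 0.0695) and 0.47 for miR-497 (adjusted p = 0.0167). Against day 4 the day 14 rises were larger, 0.52 ± 0.10 for miR-195 (adjusted p = 0.00176) and 0.60 ± 0.09 for miR-497 (adjusted p = 0.000485), where 13.9% of tested miRNAs rose. From day 1 to day 14, 3 members rose (miR-497 by 0.51, miR-15b by 0.42 and miR-195 by 0.36, adjusted p = 0.000593, 0.00383 and 0.00919), where 24.2% of tested miRNAs rose and 55.4% passed in either direction.

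**Figure D3:**
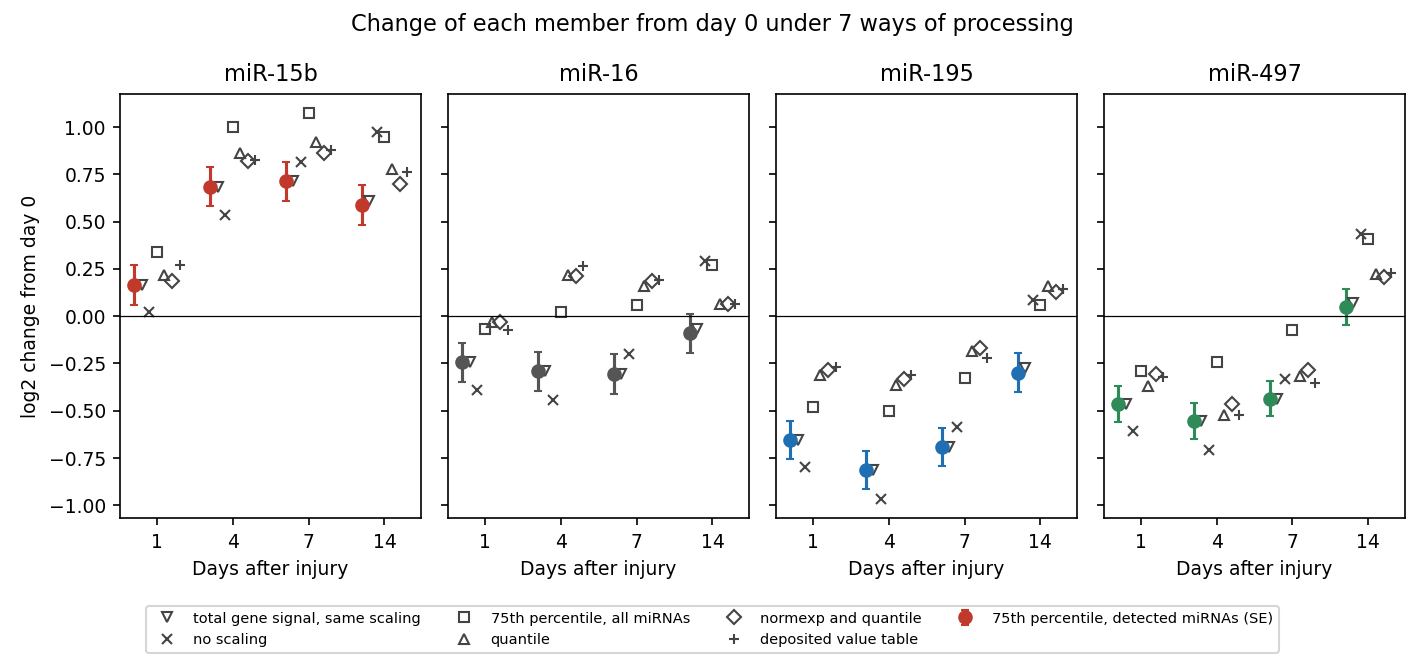
Log2 change of each member from day 0 (vertical axis) on days 1, 4, 7 and 14 (horizontal axis) under 7 ways of processing. The coloured points with SE bars are the reported values and the open symbols are the other 6. miR-15b stays above 0 from day 4 under all 7 (0.53 to 1.07), and miR-195 stays below 0 on days 1, 4 and 7 under all 7. miR-16 on days 4, 7 and 14 and miR-195 on day 14 lie on both sides of 0.

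A ratio of 2 members on the same array is free of any scaling that divides a whole array by 1 number, so the differences between members were read from such ratios. Quantile normalisation does not cancel in a ratio, nor is it known whether the normalisation of the deposited table does, so ratios were also taken with quantile normalisation, normexp and that table. Where ratios are said not to overlap between days, no share over all tested miRNAs is given beside it. The log2 ratio of miR-15b to its cluster partner miR-16 was -2.74, -2.91 and -3.08 on the day 0 arrays and -2.53, -2.62 and -2.36 on those of day 1. It was -1.99, -1.84 and -1.97 on day 4, -1.91, -1.88 and -1.89 on day 7, and -2.17, -2.31 and -2.22 on day 14. No injured array overlapped the uninjured ones, and the day 14 arrays fell back below those of days 4 and 7.

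Relative to miR-16, miR-15b rose by 0.41 ± 0.09 on day 1 (adjusted p = 0.00212), 0.98 ± 0.09 on day 4 (1.97-fold, adjusted p = 1.42e-06), 1.02 ± 0.09 on day 7 (2.02-fold, adjusted p = 7.98e-07) and 0.68 ± 0.09 on day 14 (adjusted p = 3e-05), each against day 0. With every miRNA expressed relative to miR-16, 26.1% of the other 230 rose on day 1, 31.7% on day 4, 30.0% on day 7 and 19.1% on day 14. Between day 7 and day 14 the ratio fell by 0.34 ± 0.09 (adjusted p = 0.0116). With quantile normalisation, normexp and the deposited table the rises all passed but were smaller on days 1, 4 and 7, at 0.25, 0.22 and 0.34 on day 1, 0.645, 0.61 and 0.56 on day 4 and 0.765, 0.68 and 0.69 on day 7. The change between day 7 and day 14 was lost with all 3 (-0.05, -0.04 and 0.005).

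The ratio of miR-195 to miR-16, the near-identical members of different clusters, was -1.99, -2.13 and -2.04 on day 0, -2.40, -2.41 and -2.58 on day 1, and -2.56, -2.63 and -2.55 on day 4. It was -2.35, -2.48 and -2.49 on day 7 and -2.21, -2.35 and -2.23 on day 14. All injured arrays lay below all uninjured ones. The falls were 0.41, 0.52, 0.39 and 0.21 (SE 0.07) on days 1, 4, 7 and 14 (adjusted p = 0.000322, 2.55e-05, 0.000352 and 0.0176). The day 14 fall was lost without day 0 replicate 1 (-0.18) or day 14 replicate 2 (-0.17). In this fit 27.4%, 32.6%, 30.0% and 47.8% of miRNAs fell on those days. With quantile normalisation, normexp and the deposited table the day 1 change did not pass (-0.28, -0.25 and -0.20), the day 14 change was above 0 and did not pass (0.09, 0.06 and 0.08), and the falls on days 4 and 7 passed (-0.58, -0.545 and -0.58 on day 4). From day 7 to day 14 the ratio changed by 0.18 ± 0.07 (adjusted p = 0.0511). With the same 3 ways that change was 0.44, 0.41 and 0.49, and it passed in each.

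The ratio of miR-497 to miR-16 fell on day 4 (-0.26 ± 0.09, adjusted p = 0.0226), with -0.22 on day 1 (adjusted p = 0.0577), -0.13 on day 7 (adjusted p = 0.234) and 0.14 on day 14 (adjusted p = 0.191). Whether the day 4 change differs from the others was not tested, and it was lost without day 0 replicates 1 or 3 or day 4 replicates 2 or 3 (-0.22 to -0.32 over the fits that leave out 1 array). From day 7 to day 14 this ratio rose by 0.27 ± 0.09 (adjusted p = 0.0277). With quantile normalisation, normexp and the deposited table the fall was larger on day 4 (-0.74, -0.68 and -0.79) and passed on day 7 too (-0.475, -0.47 and -0.54), and with the first 2 it passed on day 1 (-0.34 and -0.28). The rise from day 7 to day 14 was then 0.63, 0.61 and 0.71, and it passed in each.

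Of the 6 pairs, miR-15b and miR-195 differed most on each injured day under the 75th percentile scaling, while with quantile normalisation, normexp and the deposited table miR-15b and miR-497 differed most on days 1, 4 and 7 and miR-15b and miR-16 on day 14. The log2 ratio of miR-15b to miR-195 log2 ratio was -0.75, -0.78 and -1.04 on day 0, -0.13, -0.20 and 0.22 on day 1, and 0.56, 0.79 and 0.58 on day 4. It was 0.44, 0.60 and 0.60 on day 7, and 0.04, 0.04 and 0.01 on day 14. Every injured array was above every uninjured one, and the day 14 arrays were below all those of days 4 and 7 and among those of day 1.

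Relative to miR-195, miR-15b rose by 0.82 on day 1, 1.5 on day 4 (2.83-fold, adjusted p = 1.44e-07), 1.40 on day 7 and 0.89 on day 14 (adjusted p = 2.98e-05), with an SE of 0.12. It passed on all 4 days with quantile normalisation, normexp and the deposited table too, but was smaller on each day. The rises were then 0.53, 0.47 and 0.54 on day 1 and 1.23, 1.15 and 1.14 on day 4. They were 1.11, 1.03 and 1.10 on day 7 and 0.62, 0.57 and 0.62 on day 14. In the fit relative to miR-195, 57.4%, 62.2%, 55.7% and 27.4% of miRNAs rose on those days. Relative to miR-497 it rose by 0.63, 1.24, 1.15 and 0.54 (SE 0.14, adjusted p = 0.00212, 5.62e-06, 1.21e-05 and 0.00334), where 43.0%, 48.3%, 38.3% and 14.8% of miRNAs rose. The 6 pairs share members and are not independent of each other.

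The ratio of the cluster partners miR-497 and miR-195 changed less on each injured day than that of miR-15b and miR-195. Under the reported scaling, miR-497 over miR-16 changed by -0.22, -0.26, -0.13 and 0.14 on days 1, 4, 7 and 14. On days 7 and 14 miR-497 thus stayed nearer to miR-16 than to miR-195. With quantile normalisation, normexp and the deposited table it stayed nearer to miR-195 on each injured day. The log2 ratio of miR-497 to miR-195 was -0.64, -0.69 and -0.66 on day 0, -0.36, -0.50 and -0.56 on day 1, and -0.38, -0.35 and -0.48 on day 4. It was -0.43, -0.41 and -0.38 on day 7, and -0.37, -0.14 and -0.44 on day 14. All injured arrays were above all uninjured ones, by a small margin. miR-497 rose relative to miR-195 by 0.26 ± 0.08 on day 4 (adjusted p = 0.0128), 0.26 ± 0.08 on day 7 (adjusted p = 0.0158) and 0.35 ± 0.08 on day 14 (adjusted p = 0.00338), with 0.19 ± 0.08 on day 1 (adjusted p = 0.062). None of these passed with quantile normalisation, normexp or the deposited table, where the change was -0.16, -0.13 and -0.21 on day 4, -0.13, -0.12 and -0.13 on day 7 and 0.07, 0.08 and 0.09 on day 14, so the direction of this small difference on days 4 and 7 depends on the processing.

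**Figure D4:**
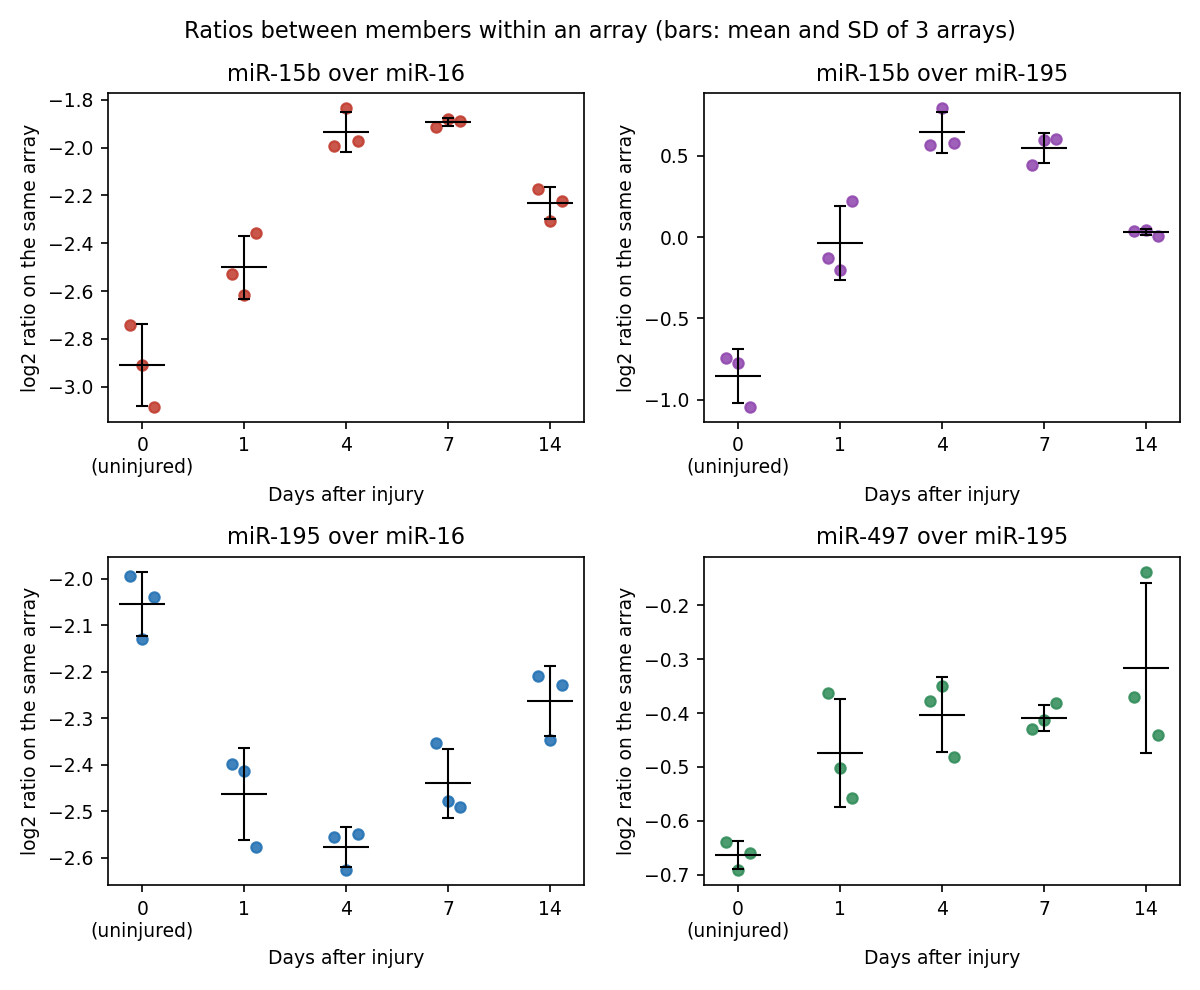
Log2 ratio of 2 members on the same array (vertical axes, each with its own range) against days after injury, with day 0 uninjured, for miR-15b over miR-16, miR-15b over miR-195, miR-195 over miR-16 and miR-497 over miR-195. Each point is an array and the bars are the mean and SD of 3 arrays. miR-15b over miR-195 averages 0.64 on day 4 and -0.86 on day 0, whereas miR-497 over miR-195 stays between -0.69 and -0.14. With quantile normalisation, normexp and the deposited table the ratio of miR-497 to miR-195 was lower, not higher, on days 4 and 7 than on day 0, and that of miR-195 to miR-16 was higher on day 14.

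The seed relatives moved apart from each other. miR-322, from the X-linked cluster induced in muscle differentiation, has the same seed as the 4 members. Its arrays read -0.92, -0.655 and -0.77 on day 0, -1.75, -1.54 and -1.70 on day 1, -0.79, -0.66 and -0.60 on day 4, -0.48, -0.35 and -0.51 on day 7, and -0.63, -0.61 and -0.30 on day 14. Only the day 1 arrays were low, and those of days 7 and 14 were above day 0. It fell by 0.88 ± 0.11 on day 1 (1.85-fold lower, adjusted p = 3.04e-05). It changed by 0.10 on day 4 (adjusted p = 0.454) and rose by 0.34 on day 7 (adjusted p = 0.0164) and 0.27 on day 14 (adjusted p = 0.0441), calls that were lost in 2 and 9 of the 15 fits that leave out 1 array. On day 4 a rise passed under 3 other settings: 0.41 when the percentile covered all miRNAs, 0.37 in the deposited table and 0.37 after quantile normalisation. The other arm of its hairpin, miR-322*, fell by 0.77 on day 1 and by 0.28 on day 4 (adjusted p = 6.56e-05 and 0.034). On days 7 and 14 this arm did not pass (-0.15, adjusted p = 0.243, and -0.02, adjusted p = 0.856).

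miR-503, the neighbour of miR-322 with the altered seed, read -3.84, -3.33 and -3.97 on day 0, -4.03, -3.97 and -3.99 on day 1, and -2.73, -2.56 and -2.49 on day 4. It read -2.95, -2.80 and -2.93 on day 7 and -3.12, -3.15 and -3.23 on day 14. The arrays from day 4 on were above all earlier ones. Its change was -0.28 on day 1 (adjusted p = 0.086), and it rose by 1.12 ± 0.14 on day 4 (2.17-fold, adjusted p = 9.12e-06), 0.82 on day 7 (adjusted p = 0.000133) and 0.55 on day 14 (adjusted p = 0.00297), the days on which miR-15b rose.

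miR-103 and miR-107, encoded in introns of pantothenate kinase genes and known for repressing DICER1, have the shifted seed and differ from each other at 1 of 23 positions, so their signals are not independent. miR-103 averaged 1.15 ± 0.22, 0.65 ± 0.11, 0.33 ± 0.04 and 0.49 ± 0.25 on days 1, 4, 7 and 14, against 1.46 ± 0.21 on day 0 (SD, n = 3 each). It fell by 0.81 on day 4, 1.13 on day 7 (2.19-fold lower, adjusted p = 2.13e-05) and 0.98 on day 14, and miR-107 fell by 0.85, 1.06 and 1.04 on those days and by 0.37 on day 1 (adjusted p = 0.0124, lost in 3 of the fits that leave out 1 array, in the deposited table and after quantile normalisation). On day 4 their falls were smaller with quantile normalisation (-0.28 for miR-103 and -0.44 for miR-107) and in the deposited table (-0.25 and -0.40), and passed in both. Neither passed between day 7 and day 14 (0.16 for miR-103, adjusted p = 0.511, and 0.02 for miR-107, adjusted p = 0.916).

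Of the 4 seed relatives, 0 rose and 2 fell on day 1 in limma (0 and 2 at an unadjusted p under 0.05). Among all tested miRNAs 16.9% rose and 43.7% fell on that day. On day 4, 1 relative rose and 2 fell, against 20.3% and 45.5% of all tested miRNAs. On days 7 and 14, 2 rose and 2 fell, against 17.3% and 45.5% on day 7 and 16.0% and 50.6% on day 14. Against day 1, miR-322 rose by 1.22 ± 0.11 on day 7 (adjusted p = 1.69e-06), where 58.0% of tested miRNAs passed in either direction.

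**Figure D5:**
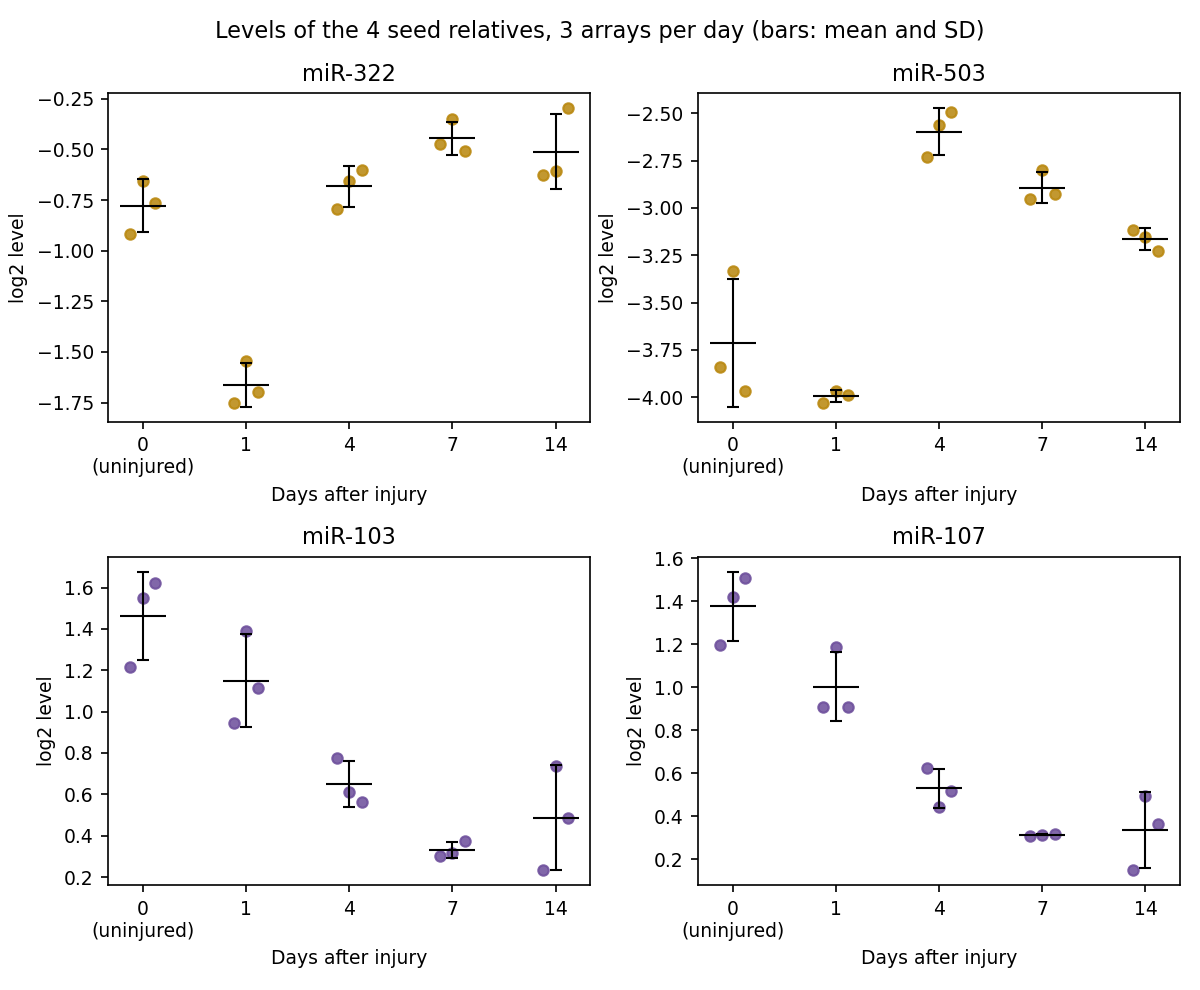
Log2 level of the seed relatives miR-322, miR-503, miR-103 and miR-107 (vertical axes, each with its own range) against days after injury, with day 0 uninjured. Each point is an array and the bars are the mean and SD of 3 arrays. miR-322 is lowest on day 1 (-1.75 to -1.54), miR-503 is highest on day 4 (-2.73 to -2.49), and miR-103 and miR-107 are lower on days 4, 7 and 14 than on day 0.

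Likeness to each member was described by Pearson's r of log2 levels over the 15 arrays, among the 163 other miRNAs detected on all of them. The arrays share scaling and slides, so r is given as a description. miR-15b was most like miR-19b (0.966), miR-19a (0.948), miR-146b (0.942), miR-20a (0.936) and miR-21 (0.931), of which miR-19a, miR-19b and miR-20a belong to the growth-associated miR-17-92 cluster. miR-16 was most like miR-27b (0.943), miR-24 (0.894), miR-505 (0.894), miR-363 (0.879) and miR-195 (0.879). miR-195 was most like miR-10a-5p (0.968) and miR-196a (0.964), both encoded in Hox gene clusters, then let-7b (0.945), miR-151 (0.944) and miR-301a (0.938). miR-497 was most like miR-130a (0.944), miR-27b (0.909), miR-30e (0.901), miR-195 (0.899) and miR-363 (0.898).

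Within the family, r was 0.879 between miR-16 and miR-195, 0.791 between miR-16 and miR-497 and 0.899 between miR-195 and miR-497, and miR-15b had a negative r with all 3 (-0.36 with miR-16, -0.56 with miR-195 and -0.36 with miR-497). From the side of miR-16, its cluster partner miR-15b ranked 151st of 163, and from the side of miR-15b, miR-503 ranked 9th with 0.859. The values within the family changed with the scaling, also in sign. With quantile normalisation miR-16 had an r of 0.73 with miR-15b (8th of 163 from its side), -0.17 with miR-195 and -0.33 with miR-497. Between miR-195 and miR-497 it was then 0.90. Without scaling miR-15b had a positive r with miR-16, miR-195 and miR-497 (0.48, 0.23 and 0.40). The neighbours depend on the scaling too: with quantile normalisation 3 of the 5 stayed for miR-15b, 2 for miR-497, and 0 for miR-16 and miR-195. Without day 14 replicate 3, 5 stayed for miR-15b, 4 for miR-195 and miR-497, and 1 for miR-16.

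Lists of miRNAs taken as marks of other cells were read on the same days. Among all tested miRNAs, 16.9%, 20.3%, 17.3% and 16.0% rose on days 1, 4, 7 and 14. The shares that fell were 43.7%, 45.5%, 45.5% and 50.6%. All 6 miRNAs taken as marks of dividing cells, from the miR-17-92 cluster, rose on days 4 and 7, with 4 on day 1 and 5 on day 14. Of these, miR-19a, miR-19b and miR-20a are also among those most like miR-15b. Their summed log2 level was 1.02 to 1.39, 1.69 to 1.75, 1.53 to 1.63 and 1.37 to 1.65 on days 1, 4, 7 and 14, against 0.76 to 0.98 on day 0. Of 5 leukocyte miRNAs 3 rose on each injured day and 1 fell on days 4, 7 and 14, with a summed level of 1.67 to 2.09 on day 1 against 0.69 to 0.94 on day 0. Of 4 Schwann cell and myelin miRNAs 3 fell on days 1, 4 and 7 and 4 on day 14, with a summed level of 3.13 to 3.36 on day 4 against 4.08 to 4.69 on day 0.

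Of 5 smooth muscle and fibroblast miRNAs, 1, 2, 2 and 2 rose and 3, 3, 2 and 2 fell on days 1, 4, 7 and 14. Muscle miRNAs varied most within uninjured nerve, with a summed level of -0.44 to 4.03 over the 3 day 0 arrays and 0 rises and 1 or 2 falls of 5 on each injured day. Of 2 endothelial miRNAs, 2, 1, 1 and 2 fell on days 1, 4, 7 and 14. Among all tested miRNAs, 43.7%, 45.5%, 45.5% and 50.6% fell on those days. Of 4 neuronal miRNAs, 2, 1, 0 and 0 rose and 1, 1, 2 and 3 fell on those days. Red blood cells hold much miR-16 as well as miR-451. Of the 2 erythrocyte miRNAs on the array, 1 rose on day 1 and 1 fell on day 14. They had a summed level of 1.61 to 3.25 on day 1 against -0.45 to 1.99 on day 0, and miR-451 had an r of -0.17 with miR-16 over the 15 arrays. The erythrocyte list held 3 miRNAs, of which the arrays read 2. Every marker that the arrays read was detected on at least 1 of them. The part of these cells in the members' changes was not tested.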

How the data were processed

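Spot intensity values were deposited as scanner output of Agilent Feature Extraction (version 10.7.3.1, per the file headers). The software had subtracted each spot's background, and arrays were not scaled to each other. The deposited value table holds log2 values, as its columns show when set against the log2 total signal of the same arrays (lowest r 0.996). How the authors normalized it is not given in the sources used here. Its columns have a median of 4.12, except day 14 replicate 3 with 0.834, and it served as an alternative only.

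Outlier and control spots were left out, and intensities were averaged per probe and then per miRNA (7000 spots, 938 probes). Values were expressed relative to the array's 75th percentile over the 164 miRNAs detected on all 15 arrays, set to at least 0.00362 and put on the log2 scale. Tested miRNAs (231 of 350) were those that some group detected on each of its 3 arrays. Group means were compared with limma 3.58.1 in R 4.3.3, using all 15 arrays in 1 model (residual degrees of freedom 10, prior 3.28). Tests are two-sided, errors are SE unless SD is written, and p-values were adjusted over all tested miRNAs within a comparison. Differences between members came from refits of the whole table with each array scaled to miR-16, miR-195 or miR-497. The number of arrays limits the precision. Python 3.11.15, pandas 2.3.3 and matplotlib 3.10.9 were also used.

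Alternatives were other scalings (75th percentile over all miRNAs, quantile, none), normexp with an offset of 50, the total signal of the software, the deposited table, other detection filters, single probes, a replicate block, the slide and left-out arrays. The files hold no mean signal, so normexp used the median signals. The comparisons of days 7 and 14 with day 1 and of day 14 with day 4, and the ratios with quantile normalisation and normexp, were added after seeing the data. The members, lists and tests were chosen with earlier results of these data known. The miRNAs named are the members, their seed relatives with other arms, the 5 most like each member, and the marker lists.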

Additional observations from a re-analysis of the deposited data

Results flagged for a closer look

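miR-322, which carries the seed of the 4 family members, went in opposite directions at different times after injury: it fell by 0.88 on day 1 and rose by 0.34 on day 7 and 0.27 on day 14, each against day 0. The difference between these changes was tested in limma as day 7 over day 1, 1.22 ± 0.11 (adjusted p = 1.69e-06), and as day 14 over day 1, 1.15 ± 0.11 (adjusted p = 2.56e-06), and all 3 arrays of each later day were above all 3 of day 1. Both comparisons with day 1 were added after seeing the data. The share of all tested miRNAs with such separate arrays is not given here. The rises on days 7 and 14 against day 0 were lost in 2 and 9 of the 15 fits that leave out 1 array. On those days the other arm of the hairpin, miR-322*, did not pass (-0.15, adjusted p = 0.243, and -0.02, adjusted p = 0.856). The day 1 arrays shared a slide of their own, so the slide and the day cannot be told apart.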

How the results depend on the processing

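The changes of miR-15b on days 4, 7 and 14, of miR-195 on days 1 and 4 and of miR-497 on day 4 kept their direction and call under every alternative run. Of the values and counts that answer a comparison, 383 of those under alternatives other than left-out arrays kept direction and call or moved little, 21 newly passed, 12 no longer passed, 23 changed sign and 11 counts moved. In the order 75th percentile over all miRNAs, quantile, normexp and deposited table, the log2 change from day 0 was 0.34, 0.22, 0.19 and 0.27 for miR-15b on day 1 (now passing), 0.022, 0.22, 0.21 and 0.27 for miR-16 on day 4 (the last 3 passing as rises), 0.058, 0.16, 0.19 and 0.19 for miR-16 on day 7 (normexp passing as a rise), 0.061, 0.16, 0.13 and 0.14 for miR-195 on day 14, and 0.41, 0.22, 0.21 and 0.23 for miR-497 on day 14 (now passing). With the first, miR-16 rose by 0.27 on day 14 and miR-497 changed by -0.073 on day 7. With the last 3, miR-16 day 4 over day 1 was 0.25, 0.24 and 0.34, and miR-195 on day 7 was -0.18, -0.17 and -0.22 and did not pass. Without scaling, miR-16 was at -0.39 on day 1 (passing) and -0.20 on day 7 (not passing), miR-195 at 0.086 and miR-497 at 0.43 on day 14. miR-16 on day 1 newly passed at -0.24 with only miRNAs detected on all arrays tested, with day 14 replicate 3 left out and the scaling kept, with the slide as a random block and with the replicate block, and at -0.25 with its probe B alone. Its F test had an adjusted p of 0.0564 with day 14 replicate 3 left out and the scaling kept. For the ratios, in the order quantile, normexp and deposited table (the first 2 added after seeing the data), miR-195 over miR-16 was -0.28, -0.25 and -0.20 on day 1 (no longer passing) and 0.093, 0.063 and 0.077 on day 14, miR-497 over miR-16 -0.34 and -0.28 on day 1 with the first 2 and -0.475, -0.47 and -0.54 on day 7 (now passing), and miR-497 over miR-195 -0.16, -0.13 and -0.21 on day 4, -0.13, -0.12 and -0.13 on day 7 and 0.066, 0.079 and 0.086 on day 14. Members called numbered 2 of 4 on day 7 with the 75th percentile over all miRNAs, quantile or the deposited table. For day 4 over day 1 they numbered 2 with quantile and 3 with normexp or the deposited table, for day 7 over day 4 1 with quantile or normexp, and for day 14 over day 7 3 with the 75th percentile over all miRNAs or without scaling, 1 with normexp or without day 14 replicate 3 and 0 within the slide. The cause of these differences was not tested.

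Leaving out single arrays gave 0.067 to 0.38 for miR-15b on day 1, -0.33 to -0.032, -0.38 to -0.14 and -0.39 to -0.14 for miR-16 on days 1, 4 and 7, -0.35 to -0.25 for miR-195 on day 14, and -0.54 to -0.25 for miR-497 on day 1. It gave an adjusted p of 0.0154 to 0.339 for the F test of miR-16, -0.25 to -0.17 for miR-195 over miR-16 on day 14, -0.31 to -0.12 and -0.32 to -0.22 for miR-497 over miR-16 on days 1 and 4, and 0.13 to 0.23 for miR-497 over miR-195 on day 1. Members called numbered 1 to 2 on day 14, for day 4 over day 1 and for day 14 over day 7. With the replicate block, miR-16 on day 1 (-0.24) and miR-497 over miR-16 on day 1 (-0.22) newly passed. So did miR-195 over miR-16 for day 14 over day 7 (0.18, adjusted p = 0.0402, against 0.0511 without the block). Not every value that crossed the threshold is listed. With quantile normalisation, normexp and the deposited table, miR-497 over miR-16 fell from day 1 to day 4 (-0.40, -0.40 and -0.54, all passing). So did miR-195 over miR-16 (-0.30, -0.29 and -0.38, all passing). In the deposited table the rise of miR-15b over miR-16 from day 1 to day 4 did not pass (0.22, adjusted p = 0.052). The call of miR-195 for day 4 over day 1 changed in 1 fit that leaves out 1 array (-0.23 to -0.07 over these fits). Same-numbered arrays of different groups had a median correlation of deviations of -0.05 over 30 pairs (lowest -0.78, highest 0.59, 8 over 0.1), so the numbers were not taken to pair the samples.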
